A study of Mus musculus with 8 samples.

Results

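Connexins and pannexins are the vertebrate proteins that form gap junctions and large-pore membrane channels. The connexins *Gja1*, *Gja4*, *Gja5*, *Gjc1*, *Gjc3* and *Gjb2* and the pannexins *Panx1* and *Panx3* were sought by gene symbol in the deposited count table, and 7 of the 8 were matched among its 19201 genes, 5 connexins and 2 pannexins. *Gjb2* was not analysed here. All 7 passed the filter on low counts, which kept 15318 genes. RNA-Seq had been performed on tibial and femoral cortical bone of C57BL/6J mice aged 6 weeks, in 4 samples of the genotype *Prx1*Cre; *Piezo1* fl/fl, called *Piezo1*-deficient here, and in 4 samples of WT mice, numbered 1, 3, 4 and 5 in each genotype. *Prx1*Cre deletes in limb mesenchyme, the source of osteoblasts, osteocytes and chondrocytes but not of blood cells or endothelium, so transcripts of undeleted cells are part of every library. The labels do not say whether each sample was a separate animal, so p-values here measure the spread between these samples.

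Connexin subunits assemble into hexameric hemichannels, and hemichannels of neighbouring cells dock into gap junctions that pass ions, ATP and other small molecules. Pannexins form channels in the membrane of single cells and release ATP, which acts on purinergic receptors and is broken down by enzymes at the cell surface. In bone, the connexin Cx43 encoded by *Gja1* couples osteoblasts with osteocytes along the osteocyte processes, and bone cells open connexin and pannexin channels when they are deformed. *Piezo1* encodes a mechanically gated cation channel.

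Libraries held 11963536 to 14536106 counts. *Piezo1* itself had 138 ± 6.36 CPM (counts scaled to the TMM-normalized library size) in *Piezo1*-deficient bone and 205 ± 9.93 CPM in WT bone (SD, n = 4 each), and fell by 0.57 on the log2 scale (adjusted p = 0.0027, edgeR). The defining genes of the labelled tissue were abundant. *Col1a1* and *Col1a2*, the chains of type I collagen, were the highest osteoblast markers, and *Dmp1* and *Phex*, genes of matrix mineralization, the highest osteocyte markers. Markers of several other tissues differed between genotypes. All 8 skeletal muscle markers tested (highest, *Acta1* and *Tnnt3*) rose, with summed levels of 365 to 3560 CPM in *Piezo1*-deficient libraries and 10.6 to 129 CPM in WT libraries. Of 10 growth plate chondrocyte markers (highest, *Col2a1* and *Acan*), 9 fell, with sums of 324 to 521 CPM in *Piezo1*-deficient libraries and 2317 to 6106 CPM in WT libraries. Of 6 tendon markers (highest, *Fmod* and *Thbs4*), 2 rose, *Thbs4* and *Cilp2*. Of 6 osteoclast markers (highest, *Acp5* and *Ctsk*), *Ocstamp* fell with edgeR and 4 fell with DESeq2, and the sums did not overlap, at 3477 to 5374 CPM in *Piezo1*-deficient libraries and 5394 to 6456 CPM in WT libraries. The 3 epithelial markers tested, led by *Epcam* and *Krt10*, summed to 5.67 to 7.26 CPM in *Piezo1*-deficient libraries and 5.38 to 8.14 CPM in WT libraries, and 0 were called by edgeR or by DESeq2 (0 at an unadjusted p under 0.05 with edgeR). *Cilp2* and *Ocstamp* were named after their values were seen. In bulk RNA, fewer cells of a type and less RNA per cell cannot be told apart.

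The connexins share a first extracellular loop whose 3 cysteines hold the docking surface. These codons are shown because they are the stretch by which the 5 connexin genes are recognized as a family, and because paralogs can share reads. Each run below goes 5′ to 3′ on the coding strand of the mm9 genome from the first to the last of these cysteine codons, which are in capitals.
*Gja1*, codons 54 to 65, chr10:56107512-56107547, plus strand: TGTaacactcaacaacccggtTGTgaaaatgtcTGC
*Gja4*, codons 54 to 65, chr4:126990018-126990053, minus strand: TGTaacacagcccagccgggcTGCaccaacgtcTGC
*Gja5*, codons 54 to 65, chr3:96854711-96854746, plus strand: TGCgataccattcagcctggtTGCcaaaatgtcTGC
*Gjc1*, codons 53 to 64, chr11:102662298-102662333, minus strand: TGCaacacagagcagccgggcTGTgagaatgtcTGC
*Gjc3*, codons 64 to 75, chr5:138399025-138399060, minus strand: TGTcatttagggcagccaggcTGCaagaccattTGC

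Over these 36 bases *Gja1* matched *Gjc1* at 28 and *Gjc3* at 18, the lowest number among the 10 pairs. The spacing of the 3 cysteine codons, 6 codons and then 3, had no match in the coding sequences of *Panx1* and *Panx3*, which belong to a separate family. Longer stretches differed between members: the longest run of identical bases in the transcripts of any pair was 28, between *Gjc1* and *Gjc3*. No 50-base word of 6 of the members occurred in the transcripts of another protein-coding gene, whereas 48 of the 3466 such words of *Gjc3* did. Counts of *Gjc3* are therefore less certain than those of the other members.

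On mm9, *Gja1* (chr10:56097106-56110225) and *Gja4* (chr4:126988665-126991283) each have 2 exons, of which 1 holds the whole coding sequence. *Gjc1* (chr11:102660893-102681014) has 1 coding exon too. *Gjc3* (chr5:138395037-138404187) has 2 coding exons of 3. *Panx1* (chr9:14809605-14849922) and *Panx3* (chr9:37467487-37476807) lie on the minus strand of 1 chromosome, with 5 and 4 coding exons. *Gja5* (chr3:96708616-96881339) overlaps *Gpr89* on the opposite strand in this annotation. The library kit does not mark strand, so reads from the overlap could not be assigned by strand, and the level of *Gja5* carries that uncertainty.

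*Gja1* was by far the most abundant member in both genotypes. Scaled to the length of its exons, its level was 211 ± 18.5 CPM per kb in *Piezo1*-deficient bone and 179 ± 15.1 CPM per kb in WT bone (SD, n = 4 each). By mean CPM it ranked 112 among the 15318 genes tested. *Panx3* came next with 28.1 ± 9.18 CPM per kb in *Piezo1*-deficient bone and 35.2 ± 11.9 CPM per kb in WT bone. *Gja4*, *Panx1* and *Gjc1* lay at 5.94 ± 0.842, 3.82 ± 0.140 and 2.51 ± 0.497 CPM per kb in *Piezo1*-deficient bone, and at 5.33 ± 1.07, 3.96 ± 0.253 and 2.07 ± 0.133 CPM per kb in WT bone. *Gja5* and *Gjc3* were lowest, at 0.863 ± 0.235 and 0.215 ± 0.0973 CPM per kb in *Piezo1*-deficient bone, and at 0.978 ± 0.162 and 0.392 ± 0.249 CPM per kb in WT bone.

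**Figure D1:**
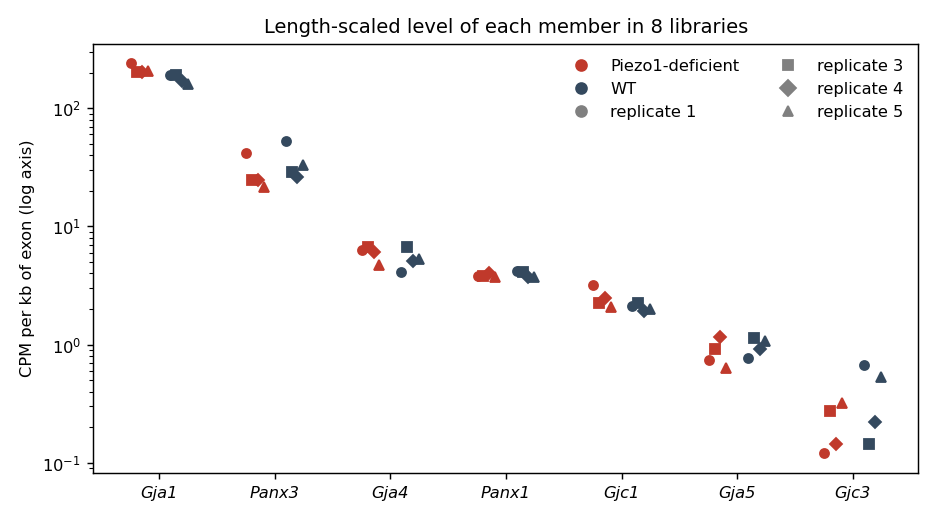
Length-scaled level of each member (vertical axis, CPM per kb of exon, logarithmic) in the 4 *Piezo1*-deficient libraries (red, left of each pair) and the 4 WT libraries (dark, right), with a marker shape for each replicate number. *Gja1* lies above *Panx3* in all 8 libraries, and the ranges of neighbours overlap only for *Gja4* with *Panx1* and for *Gja5* with *Gjc3*.

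The order of levels was nearly the same in every library. Each neighbour in the order *Gja1*, *Panx3*, *Gja4*, *Panx1*, *Gjc1*, *Gja5*, *Gjc3* was above the next in 8 of 8 libraries, except *Gja4* over *Panx1*, which held in 7 of 8. The ranges of *Gja4* and *Panx1* overlapped, and the difference between these neighbours was not tested. The ranges of *Gja5* and *Gjc3* also overlapped, although *Gja5* was the higher in each library. *Gja1* made up 95.7 ± 0.527% of the length-scaled total of the 5 connexins in *Piezo1*-deficient bone and 95.3 ± 0.604% in WT bone (difference 0.372 percentage points; two-sided exact permutation p = 0.343, n = 4 each). *Panx3* made up 87.4 ± 2.94% of the 2 pannexins in *Piezo1*-deficient bone and 89.4 ± 2.40% in WT bone (difference -1.96 percentage points; exact permutation p = 0.314, n = 4 each). Neither share differed beyond the spread between samples.

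None of the 7 members passed the test between genotypes. With p-values of edgeR's quasi-likelihood test adjusted by Benjamini-Hochberg across all 15318 genes, the test called 0 members higher and 0 lower, where 2.04% of all tested genes were called higher and 0.973% lower. At an unadjusted p under 0.05 there was 1 member, *Gja1*, where 18.4% of tested genes passed. The Wald test of DESeq2 also called 0, with 1 at an unadjusted p under 0.05. The log2 fold change was positive for 3 members and negative for 4, with a median of -0.05, against 0.0050 over all tested genes. Their median absolute log2 fold change was 0.24, against 0.13 over all tested genes. Absolute values also grow with the standard error (SE), whose median over all tested genes was 0.119. The SE was 0.16, 0.21, 0.14, 0.50 and 0.24 for *Gja4*, *Gja5*, *Gjc1*, *Gjc3* and *Panx3*. It was 0.086 and 0.093 for *Gja1* and *Panx1*.

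**Figure D2:**
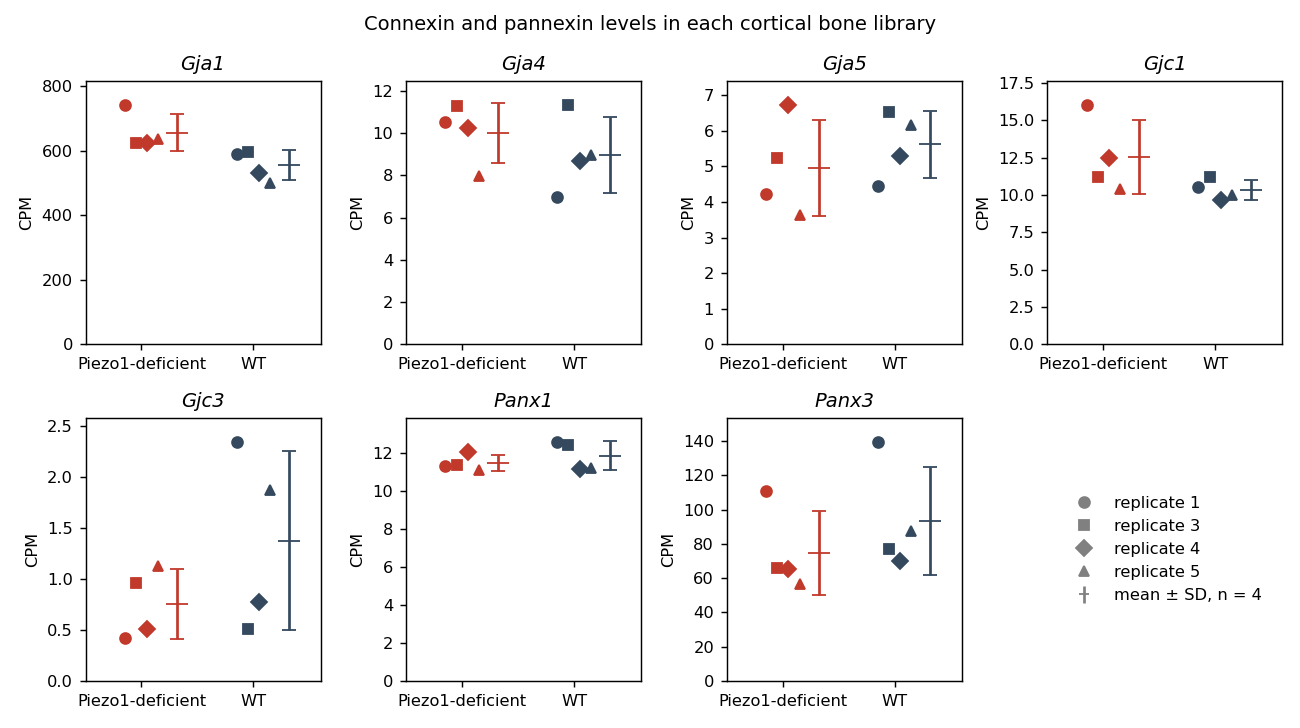
CPM of each member (vertical axes, each from 0) in the *Piezo1*-deficient libraries (red, left) and the WT libraries (dark, right), with replicate numbers as marker shapes and the mean ± SD (n = 4) beside the points. For *Gja1* the 4 *Piezo1*-deficient libraries lie above the 4 WT libraries, and for the other 6 members the genotypes overlap.

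*Gja1*, the connexin of osteoblasts and osteocytes, had 742, 624, 623.0 and 636 CPM in *Piezo1*-deficient replicates 1, 3, 4 and 5, against 590.1, 598, 532 and 501 CPM in WT replicates 1, 3, 4 and 5. The genotypes did not overlap for this 1 member, and did not overlap for 11.9% of all tested genes. The means were 656 ± 57.5 CPM in *Piezo1*-deficient bone and 555 ± 46.8 CPM in WT bone (SD, n = 4 each), a log2 fold change of 0.24 with a 95% interval of 0.05 to 0.43 that missed the threshold after adjustment over all genes (SE 0.086, adjusted p = 0.162, edgeR). Expressed as a ratio, the interval ran from 1.04 to 1.35. Without *Piezo1*-deficient replicate 1, the highest library, the log2 fold change was 0.17.

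The difference in *Gja1* was set beside the markers of the cells that express it. Summed osteoblast markers, nearly all of them *Col1a1* (130802 CPM in *Piezo1*-deficient bone and 95638 CPM in WT bone) and *Col1a2* (120479 CPM in *Piezo1*-deficient bone and 92413 CPM in WT bone), were 267501 ± 45392 CPM in *Piezo1*-deficient bone and 202186 ± 19674 CPM in WT bone (SD, n = 4 each) and did not overlap. Of these 8 markers, 2 rose with edgeR, *Bglap* and *Bglap2*, named after their values were seen, which encode near-identical osteocalcins that can share reads. DESeq2 called 4 of the 8 higher, and 5 had an unadjusted p under 0.05 with edgeR. *Col1a1* and *Col1a2* were not called by edgeR (adjusted p = 0.134 and 0.197). Summed osteocyte markers overlapped, at 2731 to 4487 CPM in *Piezo1*-deficient libraries and 3075 to 3205 CPM in WT libraries, and 0 of 7 was called by edgeR or by DESeq2 (1 at an unadjusted p under 0.05 with edgeR). The log2 ratio of *Gja1* to the osteoblast sum averaged -8.66 ± 0.13 in *Piezo1*-deficient bone and -8.51 ± 0.07 in WT bone (difference -0.15; exact permutation p = 0.143, adjusted p = 0.367 over the 11 ratios examined, n = 4 each). With the mean of the markers' log2 CPM in place of the sum, which gives the collagens no more weight than the other markers, the difference was -0.03. Its log2 ratio to the osteocyte sum was -2.41 ± 0.26 in *Piezo1*-deficient bone and -2.50 ± 0.13 in WT bone (difference 0.09; exact permutation p = 0.543, adjusted p = 0.663, n = 4 each). Relative to either sum, the genotypes overlapped.

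*Gja4* and *Gja5* encode Cx37 and Cx40, the gap junction proteins of arterial endothelium. *Gja4* had 10.6, 11.3, 10.2 and 7.99 CPM in *Piezo1*-deficient replicates 1, 3, 4 and 5, against 6.97, 11.3, 8.67 and 8.97 CPM in WT replicates 1, 3, 4 and 5 (log2 fold change 0.16, 95% interval -0.20 to 0.51, adjusted p = 0.661, edgeR). *Gja5* had 4.22, 5.23, 6.73 and 3.65 CPM in the *Piezo1*-deficient libraries, against 4.46, 6.54, 5.30 and 6.16 CPM in the WT libraries (log2 fold change -0.17, 95% interval -0.63 to 0.28, adjusted p = 0.710, edgeR). For both genes the ranges of the genotypes overlapped widely, and no order of the genotypes could be read from the samples.

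The summed endothelial markers overlapped between genotypes. Their level was 711 ± 56.8 CPM in *Piezo1*-deficient bone and 718 ± 18.8 CPM in WT bone, led by *Pecam1* and *Cdh5*, and 0 of 8 tested was called by edgeR or by DESeq2 (0 at an unadjusted p under 0.05 with edgeR). Arterial markers, led by *Hey1* and *Efnb2*, summed to 114 to 133 CPM in *Piezo1*-deficient libraries and 108 to 125 CPM in WT libraries, and 1 of 5 rose, the transcription factor *Sox17*, named after its value was seen. Against these sums *Gja4* differed by log2 values of 0.18 (endothelial) and 0.05 (arterial), and *Gja5* by -0.19 and -0.32. The smallest p among these 4 ratios was 0.171, for *Gja5* to arterial markers (exact permutation test, adjusted p = 0.367, n = 4 each).

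*Gjc1* encodes Cx45, a gap junction protein of vascular smooth muscle and of the cardiac conduction system. It had 16.0, 11.2, 12.5 and 10.4 CPM in *Piezo1*-deficient replicates 1, 3, 4 and 5, against 10.6, 11.2, 9.70 and 9.98 CPM in WT replicates 1, 3, 4 and 5. Replicate 1 was the highest of the *Piezo1*-deficient libraries, and the coefficient of variation was 19.8% in *Piezo1*-deficient bone and 6.41% in WT bone. The log2 fold change was 0.27 (95% interval -0.03 to 0.58, adjusted p = 0.324, edgeR) and was 0.13 without *Piezo1*-deficient replicate 1. Smooth muscle and pericyte markers, led by *Rgs5* and *Smtn*, did not overlap, at 525 to 673 CPM in *Piezo1*-deficient libraries and 429 to 498 CPM in WT libraries, and 3 of 7 rose. These 3, named after their values were seen, were the contractile genes *Acta2*, *Myh11* and *Tagln*. The log2 ratio of *Gjc1* to this sum was -5.64 ± 0.25 in *Piezo1*-deficient bone and -5.47 ± 0.04 in WT bone (difference -0.17; exact permutation p = 0.200, adjusted p = 0.367, n = 4 each), and the difference was -0.38 with the mean of the markers' log2 CPM. The part of these cells in the level of *Gjc1* was not tested.

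*Gjc3* encodes Cx29, a connexin of myelinating glia in the mouse. Its counts were 5, 13, 7 and 13 in *Piezo1*-deficient replicates 1, 3, 4 and 5, against 30, 7, 12 and 24 in WT replicates 1, 3, 4 and 5. At this depth the means of 0.755 ± 0.342 CPM in *Piezo1*-deficient bone and 1.38 ± 0.876 CPM in WT bone (SD, n = 4 each) could not be separated, and the 95% interval of the log2 fold change of -0.84 ran from -1.95 to 0.27 (adjusted p = 0.410, edgeR). The sum of the Schwann cell markers was higher in *Piezo1*-deficient bone, at 107 to 198 CPM in *Piezo1*-deficient libraries and 86.1 to 94.1 CPM in WT libraries, without overlap. Of 7 tested, 3 rose, among them *Pmp22*, which with *Mbp* was the highest of the list, and the tight junction gene *Cldn19*, named after its value was seen. *Mag*, another myelin gene of the list and also named after its values were seen, had 1.68 ± 0.461 CPM in *Piezo1*-deficient bone and 2.59 ± 0.689 CPM in WT bone (log2 fold change -0.61, adjusted p = 0.248, edgeR). The log2 ratio of *Gjc3* to the sum was -7.69 ± 0.86 in *Piezo1*-deficient bone and -6.29 ± 1.00 in WT bone (difference -1.40; exact permutation p = 0.0857, adjusted p = 0.314, n = 4 each), and the genotypes overlapped.

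*Panx1*, the pannexin found in most cell types, had the lowest coefficient of variation of the members in both genotypes. It had 11.3, 11.3, 12.1 and 11.1 CPM in *Piezo1*-deficient replicates 1, 3, 4 and 5, against 12.6, 12.4, 11.2 and 11.2 CPM in WT replicates 1, 3, 4 and 5. The coefficient was 3.65% in *Piezo1*-deficient bone and 6.39% in WT bone, where the median tested gene had 12.4% in *Piezo1*-deficient bone and 9.61% in WT bone. The log2 fold change was -0.05 with a 95% interval of -0.25 to 0.16 (adjusted p = 0.826, edgeR), so a change outside 0.84 to 1.12 times the WT level lay outside the interval. Relative to the endothelial sum, its log2 ratio differed by -0.03 (exact permutation p = 0.743, adjusted p = 0.743, n = 4 each).

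*Panx3*, the pannexin of osteoblasts and of prehypertrophic and hypertrophic chondrocytes, had 110.8, 65.9, 65.3 and 56.8 CPM in *Piezo1*-deficient replicates 1, 3, 4 and 5, against 139.6, 77.0, 70.04 and 87.4 CPM in WT replicates 1, 3, 4 and 5. Replicate 1 was the highest library of each genotype, and 3 of the 4 *Piezo1*-deficient libraries lay below all WT libraries. The means were 74.7 ± 24.4 CPM in *Piezo1*-deficient bone and 93.5 ± 31.6 CPM in WT bone (SD, n = 4 each), 79.9% of the WT level, and the log2 fold change was -0.32 (SE 0.24, 95% interval -0.86 to 0.22, adjusted p = 0.528, edgeR). It was -0.58 without *Piezo1*-deficient replicate 1 and -0.06 without WT replicate 1. With coefficients of variation of 32.7% in *Piezo1*-deficient bone and 33.8% in WT bone, *Panx3* varied more between samples of a genotype than the median gene did.

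The markers of the cartilage cells in which *Panx3* is known did pass the test. *Col10a1*, the collagen of hypertrophic cartilage, and *Ihh*, the hedgehog signal of prehypertrophic chondrocytes, both fell (log2 fold changes -3.41 and -3.33, adjusted p = 0.000307 and 0.000101, edgeR). They summed to 155, 179, 142 and 63.2 CPM in *Piezo1*-deficient replicates 1, 3, 4 and 5, against 1173, 1366, 1521 and 1674 CPM in WT replicates 1, 3, 4 and 5. The log2 ratio of *Panx3* to this sum was -0.80 ± 0.59 in *Piezo1*-deficient bone and -3.98 ± 0.62 in WT bone, without overlap (difference 3.18; exact permutation p = 0.0286, the smallest that 4 samples against 4 allow, adjusted p = 0.157, n = 4 each). Against the osteoblast sum the difference had the other sign: the log2 ratio was -11.84 ± 0.29 in *Piezo1*-deficient bone and -11.13 ± 0.34 in WT bone, again without overlap (difference -0.71; exact permutation p = 0.0286, adjusted p = 0.157, n = 4 each). After adjustment over the 11 ratios neither passed, and none could have passed unless at least 7 of them had reached the smallest p. With the mean of the markers' log2 CPM in place of the sum, the differences were 2.95 (hypertrophic) and -0.59 (osteoblast). Each then had an adjusted p of 0.314 (exact permutation test). With the sums, leaving out any 1 library kept the differences at 2.96 to 3.48 and at -0.82 to -0.56.

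**Figure D3:**
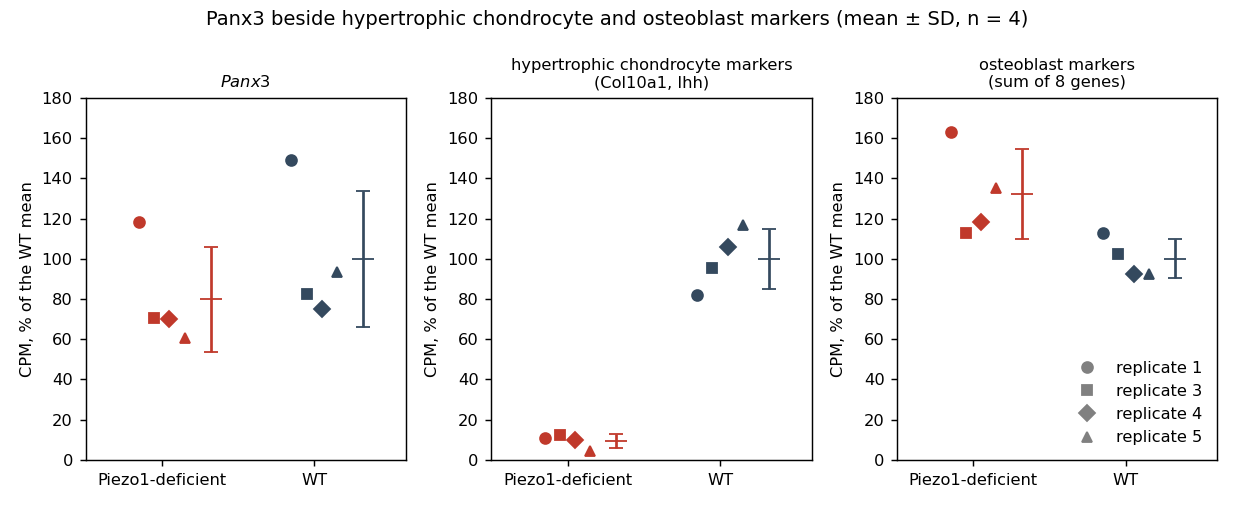
CPM as a percentage of the WT mean (vertical axes) for *Panx3*, for the sum of the hypertrophic chondrocyte markers *Col10a1* and *Ihh*, and for the sum of 8 osteoblast markers, in *Piezo1*-deficient libraries (red, left) and WT libraries (dark, right), with the mean ± SD (n = 4) beside the points. *Panx3* overlaps between genotypes with a mean of 79.9% of WT, while the hypertrophic sum is lower and the osteoblast sum higher in each *Piezo1*-deficient library.

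*Gja3*, the lens connexin Cx46, was listed with the families but was not a member and did not pass the filter on low counts. It had 0.805 ± 0.386 CPM in *Piezo1*-deficient bone and 0.568 ± 0.102 CPM in WT bone (SD, n = 4 each).

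Of 42 tested genes that act with these channels, 3 rose and 0 fell, where 2.04% of all tested genes were called higher and 0.973% lower. A pair of them were among the 12 proteins listed as connexin partners (median log2 fold change 0.08). *Nov*, also called Ccn3, a secreted matricellular protein that binds Cx43, had 3.55, 1.62, 4.75 and 6.16 CPM in *Piezo1*-deficient replicates 1, 3, 4 and 5, against 1.17, 0.654, 1.16 and 1.01 CPM in WT replicates 1, 3, 4 and 5 (log2 fold change 1.99, SE 0.39, adjusted p = 0.0251, edgeR). *Cav1*, the main protein of caveolae, had 60.8, 64.0, 69.6 and 53.7 CPM in *Piezo1*-deficient libraries, against 46.3, 46.7, 46.4 and 49.1 CPM in WT libraries (log2 fold change 0.40, SE 0.080, adjusted p = 0.0286, edgeR). Both genes were higher in 4 of 4 *Piezo1*-deficient libraries than in any WT library, and the genotypes did not overlap for 11.9% of all tested genes. The other 10 of the list did not pass the test.

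Extracellular nucleotide enzymes numbered 7 tested, of which 1 rose with edgeR (median log2 fold change 0.17). DESeq2 called 2 of the list higher, and 4 had an unadjusted p under 0.05 with edgeR. The gene called by edgeR was *Entpd3*, an ectonucleotidase that cleaves ATP, with 192, 177, 185 and 201 CPM in *Piezo1*-deficient replicates 1, 3, 4 and 5, against 138, 162, 135 and 134 CPM in WT replicates 1, 3, 4 and 5 (log2 fold change 0.41, SE 0.078, adjusted p = 0.0234, edgeR). Each of the 3 calls was lost when some single libraries were left out: *Cav1* in 6 of the 8 such fits, with an adjusted p of up to 0.0935, *Entpd3* in 4, up to 0.0999, and *Nov* in 4, up to 0.0905 (edgeR). The log2 fold changes stayed at 0.34 to 0.45 for *Cav1*, 0.37 to 0.48 for *Entpd3* and 1.70 to 2.26 for *Nov* in these fits. All 3 calls were lost without *Piezo1*-deficient replicate 4, WT replicate 4 or WT replicate 5. The skeletal muscle, smooth muscle and tendon markers described above also moved with genotype, and their part in these 3 genes was not tested.

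**Figure D4:**
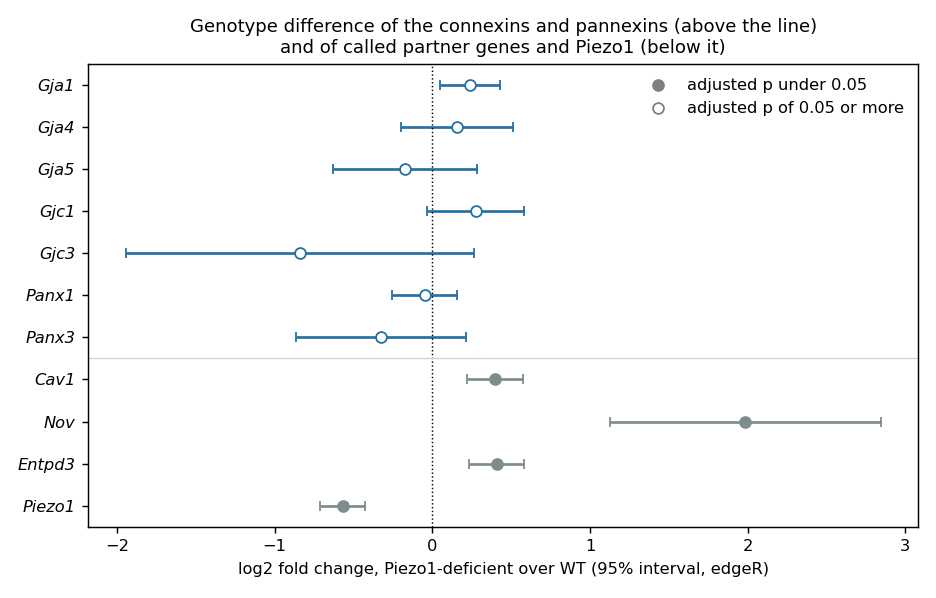
Log2 fold change of *Piezo1*-deficient over WT (horizontal axis) with its 95% interval from edgeR for the 7 members (blue, above the line) and for *Cav1*, *Nov*, *Entpd3* and *Piezo1* (grey, below it), filled where the adjusted p was under 0.05. All 7 member points are open, and the interval is widest for *Gjc3*, from -1.95 to 0.27.

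No other release channel and no purinergic receptor was called by edgeR. Of 10 other channels and carriers for ATP and anions, 0 passed with edgeR or DESeq2, and 2 had an unadjusted p under 0.05 with edgeR (median log2 fold change -0.06). *Ank*, the citrate and ATP exporter of mineralizing cells, had 196 ± 37.4 CPM in *Piezo1*-deficient bone and 225 ± 16.4 CPM in WT bone (adjusted p = 0.404, edgeR). *Lrrc8a*, the obligate subunit of volume-regulated anion channels, had 40.2 ± 2.02 CPM in *Piezo1*-deficient bone and 36.8 ± 1.99 CPM in WT bone (adjusted p = 0.357, edgeR). Of 13 purinergic receptors, 0 passed with edgeR (2 at an unadjusted p under 0.05), and DESeq2, over the listed receptors, called 1 lower, *P2rx3*, named after its value was seen (median log2 fold change of the list -0.10, edgeR). The ATP-gated channel *P2rx4* had 27.5 ± 3.25 CPM in *Piezo1*-deficient bone and 24.9 ± 1.43 CPM in WT bone (adjusted p = 0.466, edgeR). *P2rx7*, which opens at high ATP, had 11.1 ± 1.44 CPM in *Piezo1*-deficient bone and 12.7 ± 1.44 CPM in WT bone (adjusted p = 0.468, edgeR).

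The genes whose profiles lay nearest to those of the leading members were found by the root mean square difference of centred log2 CPM over the 8 libraries, among 10892 genes. Nearest to *Gja1* were *Ctsf*, a lysosomal protease (0.0405), *Cacnb3*, a subunit of voltage-gated calcium channels (0.0415), and *Ahnak*, a very large scaffold protein (0.0442), where the median gene lay at 0.202. Nearest to *Panx3* were *Plk3*, a stress-responsive kinase (0.162), *Tubb6*, a tubulin (0.165), and *Nfil3*, a transcription factor (0.187), where the median was 0.424. This measure grows with the spread of the member's own levels. Coefficients of variation were 32.7% and 33.8% for *Panx3* and 8.76% and 8.42% for *Gja1*, in *Piezo1*-deficient and WT bone. The larger distances of *Panx3* therefore do not show a more distinct profile.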

How the data were processed

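RNA-Seq had been run on ground cortical bone with an Illumina TruSeq RNA kit that does not mark strand. The table deposited by the authors holds raw counts per gene for 8 libraries, of which all were used, and their own log2 fold changes, p-values and FDR, which were not used. TopHat, Cufflinks and mm9 are named in the paper's methods, but HISAT2 and GRCm38 in the processing notes of the submitters. How reads were counted, and on which annotation, is not given in the sources used here. Positions, exon lengths and sequences were therefore taken from GENCODE M1 on mm9, and levels per kb depend on that choice.

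Counts were filtered by filterByExpr, scaled by TMM (factors 0.888 to 1.07) and compared with the quasi-likelihood F test of edgeR 4.0.16 in R 4.3.3, *Piezo1*-deficient over WT, with Benjamini-Hochberg adjustment over 15318 genes and calls at an adjusted p under 0.05. The biological coefficient of variation was 13.1%. The method was tested on simulated data. Depth was 11963536 to 14536106 counts per library, so that members with few counts have wide intervals. Ratios and shares used two-sided exact permutation tests over 70 arrangements. The 11 ratios were adjusted together. Cysteine codons were found by their spacing in the reading frame.

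The members and lists were chosen with earlier results of these data known. All members were named, the called genes of each pathway list (at most 4, or the 2 of highest mean CPM where none was called), at most 2 of highest mean CPM from each marker list, and the 3 nearest profiles of *Gja1* and *Panx3* among genes of at least 5 CPM. Lists held osteoblast, osteocyte, growth plate and hypertrophic chondrocyte, endothelial, arterial, smooth muscle and pericyte, Schwann cell, skeletal muscle, epithelial, osteoclast and tendon markers. Alternatives were DESeq2 1.42.0 (size factors and Wald test), no filter, a mean of 5 CPM, library sizes without *Col1a1*, *Col1a2* and *Sparc*, a replicate block, raw-count shares, the mean of the markers' log2 CPM in place of their summed CPM (0.5 CPM added, as for profile likeness) and leaving out each library. Some genes of the lists are not reported here.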

Additional observations from a re-analysis of the deposited data

Results flagged for a closer look

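In 38 groups of 4 libraries (members and marker sums), 3 held a library far from the others by Dixon's test at its 95% critical value. Chance flags about 1 in 20 groups. *Gja1* had 742 CPM in *Piezo1*-deficient replicate 1, where the nearest library of that genotype had 636 CPM and the lowest 623.0 CPM. *Panx3* had 110.8 CPM in the same library, where the nearest had 65.9 CPM and the lowest 56.8 CPM. The tendon marker sum was 381 CPM in WT replicate 1, where the nearest WT library had 223 CPM and the lowest 199 CPM.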

How the results depend on the processing

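No member was called under any of 14 alternative fits, and each kept the sign of its log2 fold change in all of them (13 for *Gjc3*, which the filter at 5 CPM removed). The smallest adjusted p of a member was 0.0796, for *Panx3* with a replicate block. Without 1 library, log2 fold changes ran from 0.17 to 0.28 for *Gja1*, 0.06 to 0.29 for *Gja4*, -0.36 to -0.06 for *Gja5*, 0.13 to 0.34 for *Gjc1*, -1.12 to -0.46 for *Gjc3*, -0.08 to -0.02 for *Panx1* and -0.58 to -0.06 for *Panx3*. The labels give both genotypes the same replicate numbers, but libraries of the same number correlated at -0.223 to 0.358 and 3 of 8 correlated best with their own number, so the numbers were not taken as pairs. With the replicate block, the calls over all genes were 506 higher and 320 lower, against 313 and 149 without it, and those of DESeq2's Wald test 606 and 343; without 1 library they ran from 71 to 415 higher and from 49 to 271 lower. Pathway genes called higher numbered 3 in the reported fit, 4 with the Wald test of DESeq2, 5 with the replicate block and 0 to 3 without 1 library. Pathway genes called lower numbered 0 in the reported fit, 1 with the Wald test of DESeq2 (*P2rx3*) and 0 to 2 without 1 library (2 without *Piezo1*-deficient replicate 1, *Ank* and *Enpp1*, the second named after its value was seen). The log2 ratio of *Panx1* to endothelial markers, -0.03, was 0.0096 with the mean of the markers' log2 CPM, under which *Gjc1* to smooth muscle markers was -0.38 (-0.17 with the sum) and *Gja1* to osteoblast markers -0.03 (-0.15 with the sum). Under the same mean, *Panx3* to osteoblast markers was -0.59 (-0.71 with the sum) and to hypertrophic chondrocyte markers 2.95 (3.18 with the sum). Of the small ratio differences, 3 also changed sign without 1 library: *Gja1* to osteocyte markers (-0.00082 to 0.18), *Gja4* to arterial markers (-0.05 to 0.14) and *Panx1* to endothelial markers (-0.07 to 0.02). The cause of these moves was not tested. With 5 to 30 counts per library, the depth limits *Gjc3* most.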
